A study of Rattus with 6 samples.

Results

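The genes described here are the enzymes that break glucose down to lactate and the genes that cells switch on when oxygen is short. The list of 40 genes holds 17 glycolytic enzymes, 8 transporters and regulators of the pathway, 7 genes of oxygen sensing and 8 other targets of the hypoxia-inducible factor. They were found by name among the 22058 protein-coding rows of a deposited table of 54012 rows, where the 40 names matched 41 rows because Aldoa is listed under 2 identifiers. Of the 40 genes, 33 had a mean of at least 1 FPKM (fragments per kilobase of gene length, scaled to library depth) over the 6 libraries and entered the test, among 12080 rows tested in all.

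The si_CDCP1 cultures (3 libraries, genotype label CDCP1 knockdown) were given an siRNA against CDCP1, a transmembrane glycoprotein phosphorylated by Src family kinases. The si_NC cultures (3 libraries, genotype label WT) were given a control siRNA. Both groups are labelled as primary cultures of vascular smooth muscle cells from aorta, and both received the vasoconstrictor angiotensin II (Ang II) after the knockdown step. No culture without Ang II was analysed here, and the labels give neither an Ang II dose, a treatment time nor an oxygen setting. The labels name rat as the organism, whereas the table lists mouse genes and the processing notes name the mouse build mm10. For a value near 0 the species therefore cannot be told apart from a low level. The part of the species in levels compared between genes, such as isozyme shares and ranks, was not tested.

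The libraries held between 16050517 and 19771638 recovered reads in listed genes. Cdcp1, the siRNA target, had 0, 5 and 0 reads in the si_CDCP1 libraries and 2, 2 and 1 reads in the si_NC libraries, so the knockdown could not be checked. Of 8 defining smooth muscle markers 2, Acta2 and Smtn, had a mean of at least 1 FPKM. Tagln, Cnn1 and Myh11 were each at most 0.216 FPKM in every library. The summed markers of endothelium ranged from 0.406 to 0.515 FPKM in si_CDCP1 and from 0.364 to 0.401 FPKM in si_NC. These sums did not overlap between the groups but were near 0. Those of epithelium (at most 0.218 FPKM in si_CDCP1 and 0.137 FPKM in si_NC) were also near 0. Those of fibroblasts, mostly Col1a1, ranged from 274 to 308 FPKM in si_CDCP1 and from 277 to 309.9 FPKM in si_NC. The summed leukocyte markers, almost all Cd68, ranged from 0.714 to 0.878 FPKM in si_CDCP1 and from 1.22 to 1.31 FPKM in si_NC. Cd68 was thus lower in si_CDCP1 without overlap between the groups. So was the fibroblast marker Pdgfra, at 8.69 ± 0.984 FPKM in si_CDCP1 and 10.4 ± 0.361 FPKM in si_NC (SD, n = 3 each). The fibroblast markers Col1a1 and Dcn overlapped between the groups, and 25.0% of all rows tested did not overlap. The part of the markers in the values below was not tested. The si_CDCP1 replicate 3 library stood apart. Its Pearson correlation with the other si_CDCP1 libraries was 0.981 and 0.983 on the log2 scale, against 0.990 between those 2. Many, but not all, of the results that rest on that library are given with and without it.

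In glycolysis, hexokinase traps glucose in the cell, phosphofructokinase commits it to the pathway, and a series of abundant enzymes converts it to pyruvate, which lactate dehydrogenase reduces to lactate. HIF-1, a dimer of the HIF-1α and ARNT proteins, drives many of these genes when oxygen is low. In normal oxygen, prolyl hydroxylases of the EGLN family mark HIF-1α, and the VHL protein then directs it to the proteasome. Smooth muscle cells are known for producing much lactate even in normal oxygen. HIF-1α is controlled largely at the level of the protein, which RNA levels do not show.

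Over the whole list no member passed the test between the 2 groups. Limma on log2(FPKM + 1), with Benjamini-Hochberg (BH) adjustment over all 12080 rows, called 0 of the 33 tested members at an adjusted p of 0.05, where the background was 0.0% of all rows. At an unadjusted p under 0.05 there were 10 members, or 30.3%, beside 14.3% of all rows tested. Of these 10, 9 had higher values in si_CDCP1 (background 8.94%) and 1 had lower values (background 5.31%). The 9 were Hif1a, Slc16a1, Hk2, Tpi1, Pgk1, Eno2, Ndrg1, Vegfa and Higd1a, and the other was Pfkm. When all libraries were set to an equal FPKM sum, 2 members were higher (background 4.45%) and 4 lower (background 10.8%) at that threshold, beside 15.2% of all rows in both directions, so the split between higher and lower values depends on the scaling. That scaling moved the median log2 difference of all rows to -0.04. Of the 33 members, 3 were at that threshold without si_NC replicate 1 (background 8.07%), 1 without si_NC replicate 2 (background 7.57%) and 6 without si_NC replicate 3 (background 9.09%). The share of members was thus near or below that of all rows when si_NC replicate 1 or 2 was left out. Limma voom on recovered reads had its own filter and tested 38 of the 40 members. It called 0 of them over the 6 libraries (background 0.0348%), with 9 at an unadjusted p under 0.05 (background 14.8%). Without si_CDCP1 replicate 3, limma had 12 members at an unadjusted p under 0.05 (background 16.6%). Without that library voom called 3 members, Ndrg1, Tpi1 and Pgk1, all higher in si_CDCP1 (background 3.42% of 14365 rows), and had 13 at an unadjusted p under 0.05 (background 17.0%). This voom fit was chosen after the data were seen. Limma with estimated library weights called 5 members, Hif1a, Pgk1, Tpi1, Ndrg1 and Vegfa (background 7.16%), and had 14 at an unadjusted p under 0.05 (background 29.1%). There si_CDCP1 replicate 2 had a weight of 5.11, against 0.6005 for replicate 1 and 0.165 for replicate 3. The si_CDCP1 side of the weighted fit thus rested mostly on 1 library. Nothing in the labels ties the replicates to separate animals or cultures, and the p-values therefore reflect spread among libraries that may be technical.

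**Figure D1:**
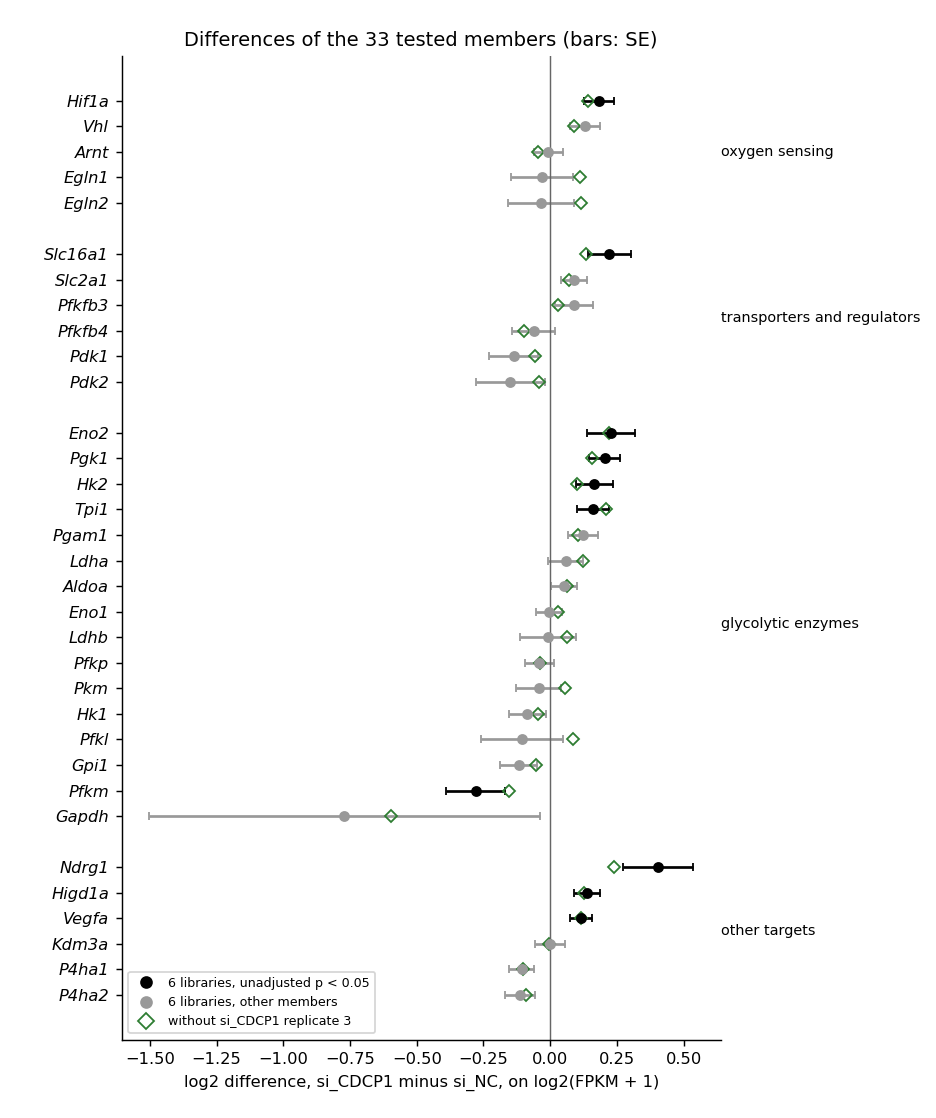
Each row is 1 of the 33 tested members, grouped by role, and the horizontal axis is the log2 difference, si_CDCP1 minus si_NC, on the log2(FPKM + 1) scale. Circles with SE bars are from all 6 libraries (black where the unadjusted p is under 0.05) and open diamonds are without si_CDCP1 replicate 3; apart from Gapdh, the circles lie between -0.28 for Pfkm and 0.40 for Ndrg1.

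The differences were small. Among the tested members 1, Gapdh, had group means more than 1.5-fold apart, and that difference rested on 1 library, as described below. The median log2 difference over the 33 members was 0.00 (16 positive, 17 negative), beside 0.01 over all rows tested, and without si_CDCP1 replicate 3 it was 0.06 (21 positive, 12 negative). The libraries of the 2 groups did not overlap for 15 of the 33 members, 12 of them higher (background 14.4%) and 3 lower (background 10.6%) in si_CDCP1, where 25.0% of all rows tested did not overlap. In bulk cultures fewer cells of a type and less RNA per cell cannot be told apart.

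Of the oxygen sensing genes, Hif1a had higher values in si_CDCP1 and the prolyl hydroxylase genes did not separate the groups. Hif1a, which encodes the oxygen-regulated subunit of HIF-1 (ENSMUSG00000021109, mm10 chromosome 12, 73901375 to 73947530, plus strand), stood at 59.7, 62.2 and 66.1 FPKM in si_CDCP1, against 54.4, 53.5 and 57.4 FPKM in si_NC. Every si_CDCP1 library was above every si_NC library, and replicate 3 was the highest in each group. The means were 62.6 ± 3.22 FPKM in si_CDCP1 and 55.1 ± 2.04 FPKM in si_NC (SD, n = 3 each), and the log2 difference was 0.18 (SE 0.056, limma BH-adjusted p = 0.290). Over the alternatives the adjusted p of Hif1a ranged from 0.0378 with library weights to 0.645, and without si_CDCP1 replicate 3 the difference was 0.14.

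Vhl, whose protein is the substrate receptor of the ligase that removes HIF-1α, had 17.98, 19.1 and 20.3 FPKM in si_CDCP1, against 17.5, 17.1 and 17.5 FPKM in si_NC. The groups did not overlap, with a log2 difference of 0.13 (SE 0.057, limma BH-adjusted p = 0.353), and 0.09 without si_CDCP1 replicate 3. Arnt, the constitutive partner of HIF-1α, averaged 14.0 ± 0.745 FPKM in si_CDCP1 and 14.1 ± 0.224 FPKM in si_NC (SD, n = 3 each).

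The hydroxylase genes Egln1 and Egln2 followed 1 library. Egln1, which encodes the main HIF-1α hydroxylase PHD2, had 22.2, 21.5 and 16.0 FPKM in si_CDCP1, against 19.9, 20.2 and 20.4 FPKM in si_NC. Egln2 had 19.99, 18.6 and 13.9 FPKM in si_CDCP1, against 17.4, 17.9 and 17.9 FPKM in si_NC. In both genes si_CDCP1 replicates 1 and 2 lay above all si_NC libraries and replicate 3 below them. The log2 differences were -0.03 for each, and 0.11 for Egln1 and 0.12 for Egln2 without si_CDCP1 replicate 3. Egln3, a hydroxylase gene that is itself strongly induced by hypoxia, was not tested, with values from 0.265 to 0.691 FPKM in si_CDCP1 and from 0.645 to 0.841 FPKM in si_NC (69 and 111 reads). Epas1, which encodes HIF-2α, was also below the filter, from 0.507 to 1.19 FPKM in si_CDCP1 and from 0.834 to 0.982 FPKM in si_NC. Epas1 made up 1.27 ± 0.611% of the summed Hif1a and Epas1 FPKM in si_CDCP1 and 1.63 ± 0.154% in si_NC (SD, n = 3 each).

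**Figure D2:**
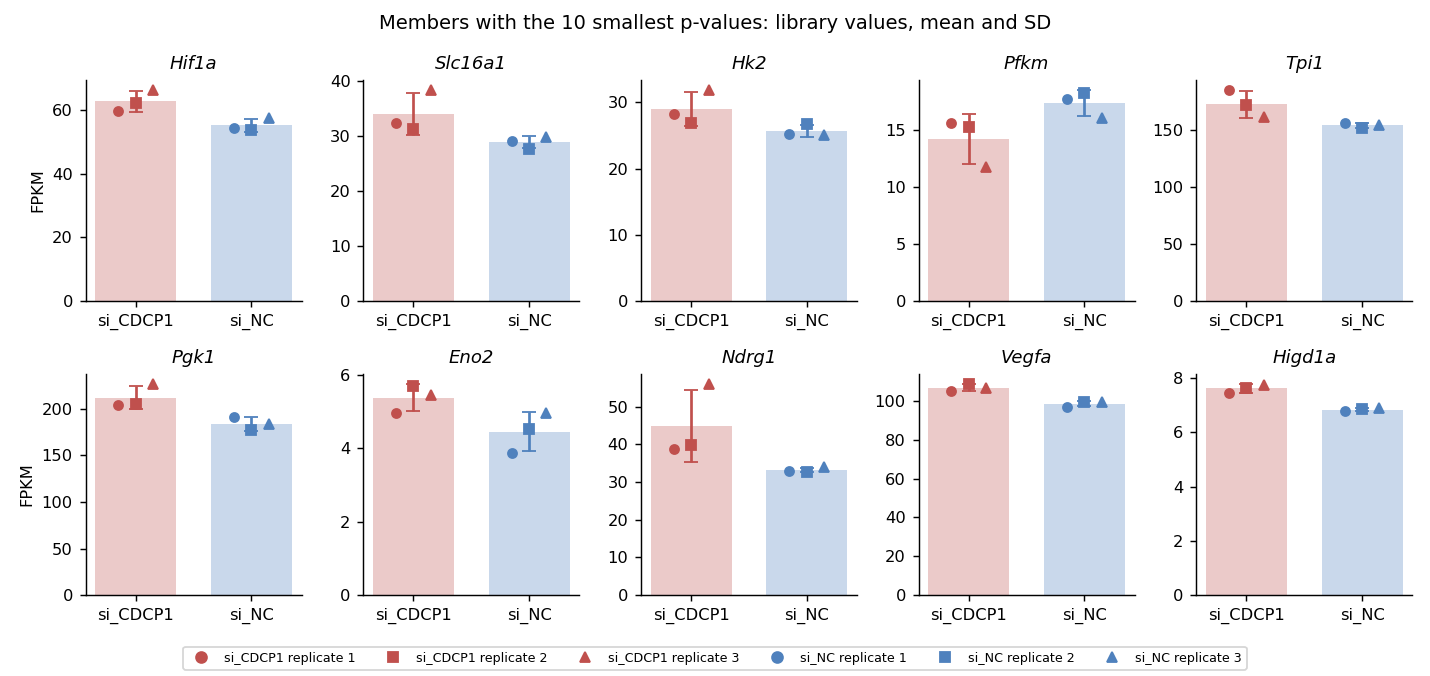
FPKM of the 10 members with an unadjusted p under 0.05, 1 panel a gene, with si_CDCP1 on the left and si_NC on the right. Bars are means, error bars SD (n = 3 each) and points the libraries, with triangles for replicate 3; in each panel the groups do not overlap, and Ndrg1 in si_CDCP1 replicate 3, at 56.0 FPKM, stands well above the other 2 si_CDCP1 libraries.

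GLUT1 and GLUT3, encoded by Slc2a1 and Slc2a3, carry glucose into cells, and lactate crosses the membrane through the monocarboxylate transporters MCT1 and MCT4, encoded by Slc16a1 and Slc16a3. Slc2a1 had 30.9, 31.5 and 32.7 FPKM in si_CDCP1, against 28.7, 30.7 and 29.8 FPKM in si_NC. The groups were adjacent without overlap, and the log2 difference was 0.09 (SE 0.049, limma BH-adjusted p = 0.421). Slc2a3 lay between 0.423 and 0.655 FPKM in si_CDCP1 and between 0.455 and 0.508 FPKM in si_NC, so that Slc2a1 made up nearly all of the summed transcript as listed. Slc2a3 overlaps the processed pseudogene Gm4482 on the same strand, a row of 3.85 FPKM. How reads shared by such rows were counted is not given in the sources used here, so the Slc2a3 level is uncertain. Slc16a1 had 32.4, 31.2 and 38.3 FPKM in si_CDCP1, against 29.2, 27.7 and 29.8 FPKM in si_NC. All si_CDCP1 libraries were above all si_NC libraries, with replicate 3 the furthest. The log2 difference of Slc16a1 was 0.22 (SE 0.081, limma BH-adjusted p = 0.320), and 0.13 without si_CDCP1 replicate 3. Slc16a3, the export transporter gene that hypoxia induces in many cells, was close to undetected, with 56 reads in si_CDCP1 and 55 reads in si_NC.

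The bifunctional enzymes PFKFB3 and PFKFB4 set the level of fructose 2,6-bisphosphate, which activates phosphofructokinase. Pfkfb3 had 11.4, 10.8 and 12.7 FPKM in si_CDCP1, against 10.4, 11.2 and 11.0 FPKM in si_NC, and the groups overlapped. Pfkfb4 had 2.20, 2.05 and 2.38 FPKM in si_CDCP1, against 2.32, 2.29 and 2.44 FPKM in si_NC, also with overlap. The pyruvate dehydrogenase kinases PDK1 and PDK2 inhibit pyruvate dehydrogenase and so hold pyruvate back from oxidation in the mitochondria. Pdk1 had 5.23, 6.21 and 4.69 FPKM in si_CDCP1, against 5.89, 6.10 and 5.93 FPKM in si_NC. The si_CDCP1 values enclosed the si_NC values. The log2 difference was -0.14 (SE 0.092, limma BH-adjusted p = 0.493), and -0.06 without si_CDCP1 replicate 3. Pdk2 averaged 2.49 ± 0.479 FPKM in si_CDCP1 and 2.86 ± 0.417 FPKM in si_NC (SD, n = 3 each), with overlap.

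The enzymes of the lower pathway were among the most abundant transcripts of the cultures, in the plot of enzyme levels. Of the 17 enzyme genes, 6 had a mean of at least 100 FPKM: Aldoa, Tpi1, Pgk1, Pgam1, Eno1 and Pkm. Pkm, which encodes pyruvate kinase, ranked 75 among protein-coding rows by mean FPKM. The 17 genes together made up between 0.554 and 0.612% of protein-coding FPKM in si_CDCP1 and between 0.583 and 0.602% in si_NC. Of the 16 tested enzymes, 4 had higher (background 8.94%) and 1 lower values (background 5.31%) in si_CDCP1 at an unadjusted p under 0.05, and with equal FPKM sums 1 was higher (background 4.45%) and 2 were lower (background 10.8%). The median log2 difference was -0.01 (7 positive, 9 negative), and 9 of the 16 were lowest in si_CDCP1 replicate 3, beside 30.0% of all rows tested. Without that library the median was 0.06 (11 positive, 5 negative).

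**Figure D3:**
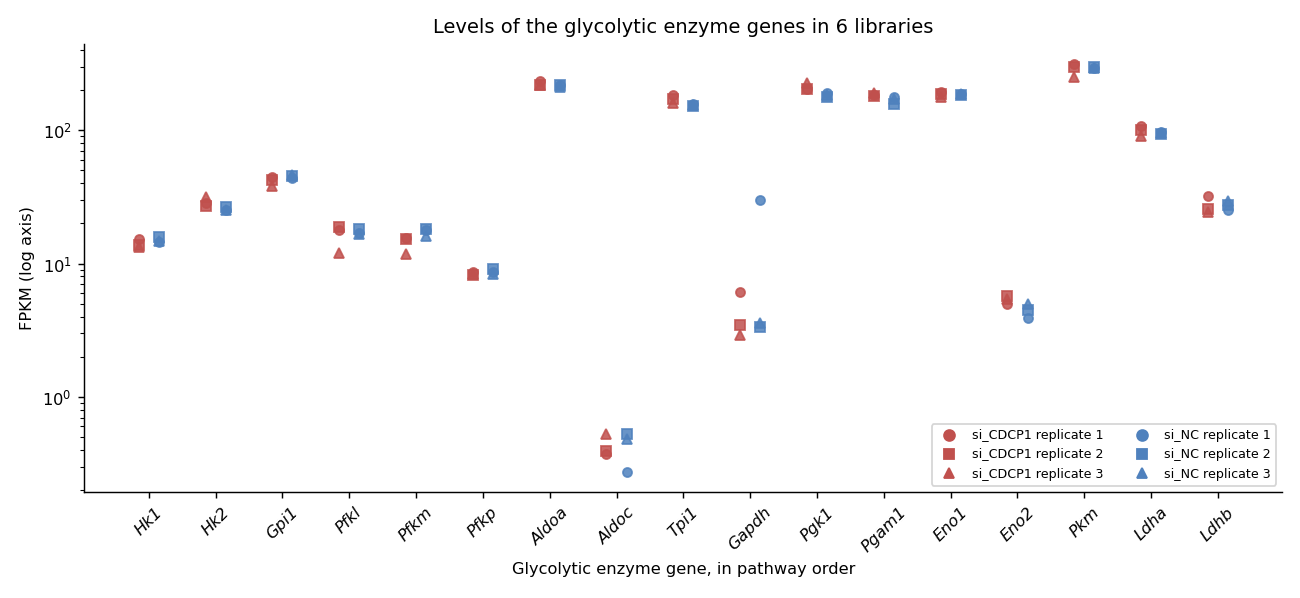
FPKM on a log axis of the 17 glycolytic enzyme genes in pathway order, from hexokinase to lactate dehydrogenase, with the si_CDCP1 libraries in red to the left of the si_NC libraries in blue for each gene. The lower pathway from Aldoa to Pkm lies between 152 and 312 FPKM except for Aldoc, Gapdh and Eno2; Gapdh averages 3.88 FPKM in 5 libraries and is at 30.1 FPKM in si_NC replicate 1.

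Among the preparatory steps, Hk2, which encodes the inducible hexokinase, had 28.3, 26.9 and 31.8 FPKM in si_CDCP1, against 25.2, 26.8 and 25.1 FPKM in si_NC. The groups were apart by a narrow margin, between si_CDCP1 replicate 2 and si_NC replicate 2. The log2 difference of Hk2 was 0.17 (SE 0.070, limma BH-adjusted p = 0.350), and 0.10 without si_CDCP1 replicate 3. Hk1, the housekeeping hexokinase gene, averaged 14.2 ± 1.10 FPKM in si_CDCP1 and 15.1 ± 0.695 FPKM in si_NC (SD, n = 3 each), with overlap. Gpi1, the glucose-6-phosphate isomerase gene, averaged 41.6 ± 3.54 FPKM in si_CDCP1 and 45.2 ± 1.18 FPKM in si_NC, also with overlap.

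The 3 phosphofructokinase genes encode subunits named for muscle (Pfkm), liver (Pfkl) and platelets (Pfkp), which form mixed tetramers. Pfkm had 15.6, 15.2 and 11.7 FPKM in si_CDCP1, against 17.7, 18.2 and 16.0 FPKM in si_NC. All si_CDCP1 libraries were below all si_NC libraries. The log2 difference of Pfkm was -0.28 (SE 0.11, limma BH-adjusted p = 0.338), and -0.16 without si_CDCP1 replicate 3. Pfkl had 17.8, 18.8 and 12.0 FPKM in si_CDCP1, against 16.9, 18.03 and 16.7 FPKM in si_NC. Only replicate 3 of si_CDCP1 was below the si_NC libraries, and the log2 difference of -0.11 was 0.09 without it. Pfkp had 8.68, 8.24 and 8.39 FPKM in si_CDCP1, against 8.69, 9.06 and 8.39 FPKM in si_NC, and the log2 difference was -0.04 (SE 0.054). Pfkm overlaps Senp1 and Pfkp overlaps Pitrm1, each on the opposite strand, and since the strand setting of the counting is not given in the sources used here, reads of these pairs could not be told apart.

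Among the enzymes, Pgk1 and Tpi1 had the smallest p-values. Pgk1, which encodes the enzyme of the first ATP-forming step (ENSMUSG00000062070, mm10 chromosome X, 106187100 to 106203699, plus strand), had 204, 205 and 226 FPKM in si_CDCP1, against 191, 177 and 183 FPKM in si_NC. The groups did not overlap, and si_CDCP1 replicate 3 was the highest. Pgk1 averaged 212 ± 12.6 FPKM in si_CDCP1 and 184 ± 7.35 FPKM in si_NC (SD, n = 3 each). Limma gave a log2 difference of 0.20 (SE 0.060, limma BH-adjusted p = 0.284), and 0.16 without si_CDCP1 replicate 3. In voom without si_CDCP1 replicate 3 the adjusted p of Pgk1 was 0.0337, and over all alternatives it ranged from that value to 0.645.

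Tpi1, which encodes triosephosphate isomerase, had 184.6, 171.6 and 161 FPKM in si_CDCP1, against 156, 152 and 154 FPKM in si_NC. Here si_CDCP1 replicate 1 was the highest and replicate 3 the closest to si_NC, the reverse of Pgk1. The log2 difference of Tpi1 was 0.16 (SE 0.059, limma BH-adjusted p = 0.320), and 0.21 without si_CDCP1 replicate 3, where voom gave an adjusted p of 0.00484 (range over the alternatives 0.00484 to 0.651). Tpi1 overlaps Spsb2 on the opposite strand, a row of 8.17 FPKM. Pgam1, the phosphoglycerate mutase gene, averaged 184 ± 4.89 FPKM in si_CDCP1 and 169 ± 10.1 FPKM in si_NC (SD, n = 3 each), without overlap (limma BH-adjusted p = 0.372).

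Eno2, the neuronal enolase gene that hypoxia also induces in other cells, had 4.97, 5.70 and 5.46 FPKM in si_CDCP1, against 3.88, 4.52 and 4.96 FPKM in si_NC. The closest libraries, si_CDCP1 replicate 1 and si_NC replicate 3, nearly met. The log2 difference of Eno2 was 0.23 (SE 0.091, limma BH-adjusted p = 0.339), and 0.15 without si_NC replicate 1, the lowest library. Eno1, the main enolase gene, averaged 185 ± 8.22 FPKM in si_CDCP1 and 186 ± 1.54 FPKM in si_NC (SD, n = 3 each).

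The last steps did not separate the groups. Pkm had 312, 300.1 and 249 FPKM in si_CDCP1, against 294, 298 and 292 FPKM in si_NC. The first 2 si_CDCP1 libraries were above all si_NC libraries and replicate 3 was below them, so that the log2 difference of Pkm was -0.04 (SE 0.085) with it and 0.05 without it. Pkm overlaps AC160637.1 on the same strand, a row of 13.1 FPKM. Ldha, the lactate dehydrogenase subunit gene that favours lactate formation, had 106.8, 100.3 and 90.5 FPKM in si_CDCP1, against 96.3, 93.2 and 95.4 FPKM in si_NC. Its groups overlapped through si_CDCP1 replicate 3 alone, with a log2 difference of 0.06 (SE 0.066), and 0.12 without that library. Ldhb, which encodes the heart-type subunit, averaged 27.4 ± 3.93 FPKM in si_CDCP1 and 27.5 ± 2.20 FPKM in si_NC, and Aldoa 223 ± 9.14 FPKM in si_CDCP1 and 216 ± 4.33 FPKM in si_NC (SD, n = 3 each). The shorter Aldoa row (ENSMUSG00000114515), upstream of the main one on the same strand, had 82 reads in si_CDCP1 and 67 reads in si_NC, with a log2 difference of 0.29 (limma BH-adjusted p = 0.350). Aldoc, the brain aldolase gene, was below the filter at 0.432 ± 0.0856 FPKM in si_CDCP1 and 0.427 ± 0.134 FPKM in si_NC.

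Gapdh, the enzyme gene most often used to normalise expression between samples, stood apart from the enzymes around it in 2 ways. Its row (ENSMUSG00000057666, mm10 chromosome 6, 125161715 to 125166467, minus strand) was listed at 6.08, 3.47 and 2.91 FPKM in si_CDCP1, against 30.1, 3.35 and 3.56 FPKM in si_NC. Thus 5 libraries averaged 3.88 ± 1.26 FPKM (SD, n = 5), whereas Tpi1 and Pgk1, the genes of the steps before and after it, each had at least 152 FPKM in every library. Further, si_NC replicate 1 was 4.95-fold above the next library, with 2497 reads against 188 to 435 reads elsewhere.

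Most reads that could belong to Gapdh were listed under other rows. The description column of the table assigns 378 other rows to the same UniProt entry name as Gapdh, of which 129 had reads, nearly all of them processed pseudogenes. These rows held 90.3% of the summed reads over the 6 libraries, and the pseudogene Gm13394 on chromosome 2 alone had 291, 277 and 278 FPKM in si_CDCP1, against 274, 259.5 and 262 FPKM in si_NC. The other rows together came to 369, 349 and 361 RPM (reads scaled to the implied library total) in si_CDCP1, against 345, 328 and 332 RPM in si_NC. In si_NC replicate 1 these other rows were thus within the range of the other libraries, unlike the Gapdh row, which held 124 RPM in that library, against 12.0 to 25.1 RPM in the other 5 libraries. The sum of the Gapdh row and the other rows was 377 ± 15.3 RPM in si_CDCP1 and 386 ± 72.1 RPM in si_NC (SD, n = 3 each). The Gapdh row also overlaps Iffo1 on the opposite strand. How the counting treated reads that match several places is not given in the sources used here, so the level of Gapdh is uncertain in every library. The part of the rat label beside a mouse gene table was not tested here either.

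The test on the Gapdh row depended on that library. The log2 difference was -0.77 (SE 0.73, limma BH-adjusted p = 0.627) over 6 libraries, 0.16 without si_NC replicate 1 and -0.02 for the sum with the other rows. Of the remaining members Eno1 had 21.7% of its summed reads in other rows of the same entry name, chiefly the pseudogene Gm4735 and the protein-coding Eno1b. Ldhb had 5.11%, Pkm 4.76%, Higd1a 2.96% and Pgam1 2.84%, and the other members under 1%. With the rows summed in this way, 9 members were higher and 1 lower at an unadjusted p under 0.05.

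**Figure D4:**
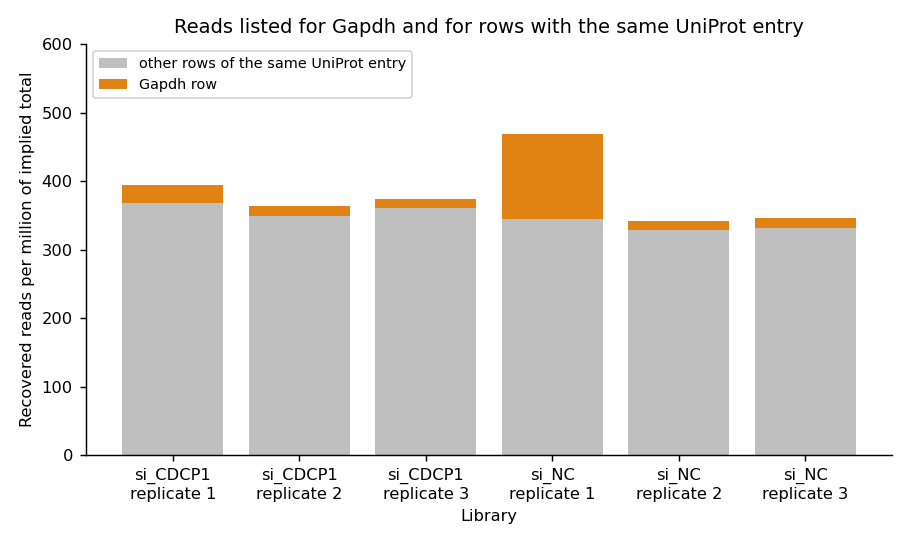
Stacked bars give recovered reads in RPM, scaled by the implied library total, for each library, si_CDCP1 on the left and si_NC on the right, with the Gapdh row in orange on top of all other rows of the same UniProt entry name in grey. The grey parts lie between 328 and 369 RPM in all 6 libraries, and the orange part of si_NC replicate 1, at 124 RPM, is the one that stands out.

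The balance between isozymes, which needs no scaling between libraries, was compared for 13 shares of summed FPKM by exact two-sided permutation tests. With 3 libraries against 3 such a test cannot go below 0.1. Each share was taken over genes of the 40-gene list, so further family genes such as Eno3 and Pdk3 were not in the sums. Eno3 averaged 24.8 ± 1.68 FPKM in si_CDCP1 and 24.0 ± 1.05 FPKM in si_NC (SD, n = 3 each). Hk2 made up 64.7, 66.2 and 70.5% of hexokinase transcript (Hk1 and Hk2) in si_CDCP1, against 63.5, 62.9 and 62.8% in si_NC. Pfkm made up 37.1, 36.0 and 36.5% of phosphofructokinase transcript in si_CDCP1, against 41.0, 40.2 and 39.0% in si_NC. Pfkfb4 made up 16.3, 16.0 and 15.8% of the summed Pfkfb3 and Pfkfb4 in si_CDCP1, against 18.3, 17.03 and 18.2% in si_NC. In these 3 shares the groups did not overlap, with differences of 4.08, -3.50 and -1.83 percentage points (exact permutation p = 0.1 each, BH-adjusted over the 13 shares 0.433). The Hk2 difference rested partly on si_CDCP1 replicate 3, at 70.5%, and was smaller without that library. The Pfkm share differed by between -4.01 and -3.05 percentage points when each library was left out in turn, and the Pfkm and Pfkl levels were both lowest in si_CDCP1 replicate 3.

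The remaining shares overlapped between the groups. Eno2 made up 2.83 ± 0.277% of Eno1 and Eno2 in si_CDCP1 and 2.34 ± 0.283% in si_NC (exact permutation p = 0.2). Ldhb made up 21.6 ± 1.30% of the lactate dehydrogenase transcript in si_CDCP1 and 22.4 ± 1.49% in si_NC (exact permutation p = 0.5; SD, n = 3 each in both). The exact p lay between 0.4 and 1 for the shares of Pfkl, Pfkp, Aldoc, Slc2a3, Slc16a3, Pdk2, P4ha2 and Epas1.

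**Figure D5:**
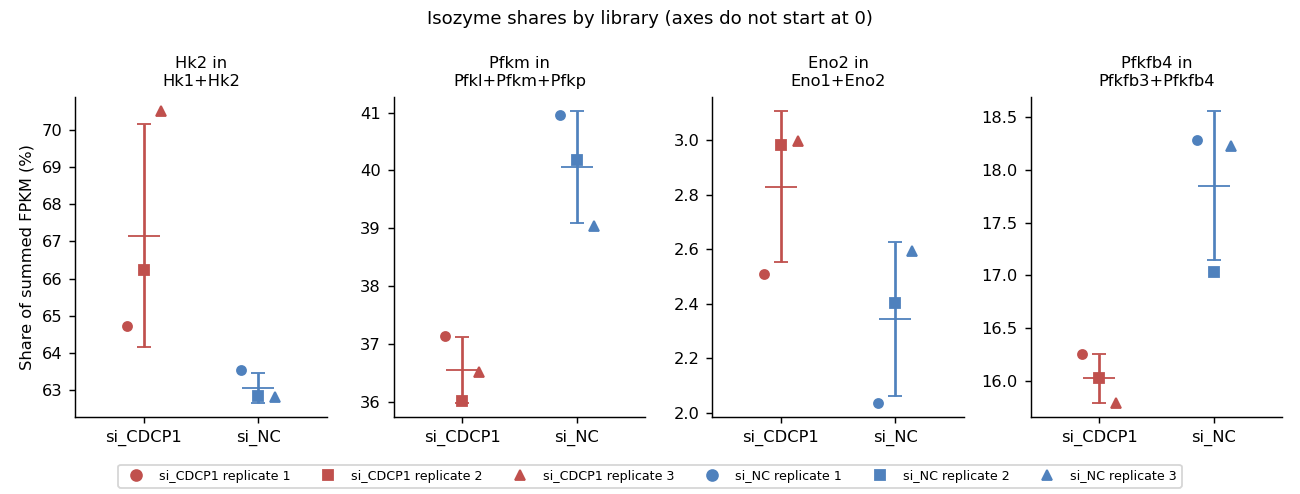
Share of 1 isozyme in the summed FPKM of the genes named above its panel, in percent, for Hk2, Pfkm, Eno2 and Pfkfb4, with si_CDCP1 on the left and si_NC on the right of each panel (points: libraries; bars: mean and SD, n = 3 each; axes do not start at 0). Hk2 is at 64.7% or more in si_CDCP1 and at most 63.5% in si_NC, and the Pfkm share is at most 37.1% in si_CDCP1 and at least 39.0% in si_NC.

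The other hypoxia targets held Ndrg1, whose log2 difference was the largest of the members apart from Gapdh, and genes that were slightly lower in si_CDCP1, with 0 BH-adjusted calls by limma in the 6 libraries. Ndrg1, a stress-response gene known as a strong hypoxia target (ENSMUSG00000005125, mm10 chromosome 15, 66929318 to 66969640, minus strand), had 38.8, 39.9 and 56.0 FPKM in si_CDCP1, against 32.9, 32.8 and 34.0 FPKM in si_NC. All si_CDCP1 libraries were above all si_NC libraries, and replicate 3 was far above the other 2. Ndrg1 averaged 44.9 ± 9.65 FPKM in si_CDCP1 and 33.2 ± 0.646 FPKM in si_NC (SD, n = 3 each), and its log2 difference was 0.40 (SE 0.13, limma BH-adjusted p = 0.298). Without si_CDCP1 replicate 3 the difference of Ndrg1 was 0.24, which voom called at an adjusted p of 0.00226 (range over the alternatives 0.00226 to 0.645).

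Vegfa, which encodes the angiogenic growth factor VEGF-A, had 105, 108.6 and 106.7 FPKM in si_CDCP1, against 97.0, 99.4 and 99.3 FPKM in si_NC. The groups were apart with little spread within each, and the log2 difference was 0.11 (SE 0.042, limma BH-adjusted p = 0.320). Under quantile normalisation the difference of Vegfa was -0.01. Higd1a, a hypoxia-induced mitochondrial membrane protein gene, had 7.45, 7.65 and 7.76 FPKM in si_CDCP1, against 6.78, 6.84 and 6.88 FPKM in si_NC. These groups were also tight and apart, with a log2 difference of 0.14 (SE 0.050, limma BH-adjusted p = 0.320).

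The collagen prolyl 4-hydroxylase genes P4ha1 and P4ha2, whose enzymes stabilise the collagen helix and which HIF-1 is known to induce, lay on the other side. P4ha1 had 38.4, 37.4 and 37.5 FPKM in si_CDCP1, against 41.5, 41.6 and 39.2 FPKM in si_NC. P4ha2 had 7.86, 8.08 and 7.52 FPKM in si_CDCP1, against 8.40, 8.93 and 8.32 FPKM in si_NC. In both genes all si_CDCP1 libraries were below all si_NC libraries, with log2 differences of -0.11 for each in limma. Kdm3a, a histone demethylase gene, averaged 10.8 ± 0.457 FPKM in si_CDCP1 and 10.8 ± 0.413 FPKM in si_NC (SD, n = 3 each). Ankrd37 had 21 reads in each group and overlaps Ufsp2 on the opposite strand, a row of 11.2 FPKM. Adm, which encodes the vasodilator peptide adrenomedullin, was listed at 0 in all 6 libraries. The floor of 3 reads set for such a count covers counting error alone and is not a firm upper bound. Over the 6 tested targets of this group the median log2 difference was 0.06 (4 positive, 2 negative), and 0.05 (3 positive, 3 negative) without si_CDCP1 replicate 3.

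The spread within groups differed. In 26 of the 33 members the SD on the log2 scale was larger in si_CDCP1 than in si_NC, or 78.8% beside 71.5% of all rows tested. The median SD of the members was 0.097 in si_CDCP1 and 0.047 in si_NC. The si_CDCP1 replicate 3 library was the highest of the 6 for 11 members (33.3%, beside 34.0% of all rows tested) and the lowest for 14 members (42.4%, beside 30.0%).

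Genes next to these pathways were described from 6 lists of 90 genes, of which 76 were tested. Of the 76, 0 passed the BH threshold in limma, 20 had higher (background 8.94%) and 3 lower values (background 5.31%) in si_CDCP1 at an unadjusted p under 0.05, and the median log2 difference was 0.05, beside 0.01 over all rows. With equal FPKM sums 10 were higher (background 4.45%) and 8 lower (background 10.8%). The 23 genes at that threshold became 13 without si_NC replicate 1 (background 8.07%) and 11 without si_NC replicate 2 (background 7.57%). The same all-row shares apply to each of the lists below, which hold few genes each. Around the entry of pyruvate into mitochondria and the pyruvate dehydrogenase step (12 tested), 5 were higher and 1 was lower, against 0 higher and 1 lower with equal FPKM sums. Pdha1, a subunit of pyruvate dehydrogenase, averaged 40.1 ± 1.15 FPKM in si_CDCP1 and 36.1 ± 0.380 FPKM in si_NC (SD, n = 3 each), with a log2 difference of 0.15 (limma BH-adjusted p = 0.289). The 2 further pyruvate dehydrogenase kinase genes lay on opposite sides: Pdk3 averaged 17.99 ± 1.15 FPKM in si_CDCP1 and 15.7 ± 0.637 FPKM in si_NC, and Pdk4 4.68 ± 0.475 FPKM in si_CDCP1 and 5.92 ± 0.354 FPKM in si_NC (SD, n = 3 each).

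Among 13 tested regulators of HIF-1α, 4 were higher and 0 lower at that threshold, beside 8.94% and 5.31% of all rows. With equal FPKM sums 3 were higher (background 4.45%) and 0 lower (background 10.8%). Elob and Eloc, the elongin subunits that carry VHL in its ligase, averaged 225 ± 6.91 FPKM (Elob) and 25.3 ± 1.58 FPKM (Eloc) in si_CDCP1, against 198 ± 9.23 FPKM (Elob) and 21.7 ± 0.452 FPKM (Eloc) in si_NC. Siah2, a ligase gene that acts on the prolyl hydroxylases, averaged 18.9 ± 1.92 FPKM in si_CDCP1 and 15.8 ± 0.447 FPKM in si_NC (SD, n = 3 each). Its log2 difference was 0.24, and 0.17 without si_CDCP1 replicate 3. Hif1an, the asparaginyl hydroxylase gene of the same system, averaged 20.4 ± 0.690 FPKM in si_CDCP1 and 19.1 ± 0.872 FPKM in si_NC (limma BH-adjusted p = 0.476).

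Of 29 tested further hypoxia targets, 9 were higher and 2 lower, beside 8.94% and 5.31% of all rows. With equal FPKM sums 6 were higher (background 4.45%) and 6 lower (background 10.8%). The split in counts thus depends on the scaling, as do the shares of all rows. Mif, which encodes a cytokine, had the smallest p of the list: it averaged 468 ± 17.3 FPKM in si_CDCP1 and 388 ± 3.47 FPKM in si_NC, a log2 difference of 0.27 (SE 0.048, limma BH-adjusted p = 0.238). Hmox1, the heme oxygenase gene, averaged 116 ± 23.8 FPKM in si_CDCP1 and 83.5 ± 3.56 FPKM in si_NC. Its log2 difference of 0.45 was 0.29 without si_CDCP1 replicate 3. Insig2, a sterol regulator, averaged 11.4 ± 0.322 FPKM in si_CDCP1 and 13.2 ± 0.454 FPKM in si_NC (SD, n = 3 each). The common hypoxia markers Bnip3 and Ddit4 did not separate: Bnip3 averaged 5.76 ± 0.946 FPKM in si_CDCP1 and 6.45 ± 0.206 FPKM in si_NC, and Ddit4 76.5 ± 7.56 FPKM in si_CDCP1 and 75.1 ± 1.07 FPKM in si_NC. Voom without si_CDCP1 replicate 3 called 3 of the 79 genes it tested on these lists, Mif, Hmox1 and Eloc, all higher in si_CDCP1, a share close to the 3.42% of all rows.

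The pentose phosphate pathway, which branches from glycolysis, had 1 of 8 tested genes higher and 0 lower. That gene, Rpia, averaged 6.38 ± 0.648 FPKM in si_CDCP1 and 5.08 ± 0.149 FPKM in si_NC. H6pd averaged 18.7 ± 3.05 FPKM in si_CDCP1 and 22.3 ± 0.403 FPKM in si_NC, and Taldo1 43.3 ± 2.54 FPKM in si_CDCP1 and 41.0 ± 2.76 FPKM in si_NC (SD, n = 3 each). The log2 difference of H6pd was -0.26, and -0.12 without si_CDCP1 replicate 3. Of 7 tested glycogen genes 1, Ugp2, was higher, at 19.4 ± 1.05 FPKM in si_CDCP1 and 17.4 ± 0.781 FPKM in si_NC. Pygb averaged 23.7 ± 3.32 FPKM in si_CDCP1 and 26.0 ± 0.654 FPKM in si_NC. The log2 difference of Pygb was -0.13, and -0.02 without si_CDCP1 replicate 3. Of the 7 tested further glycolysis genes 0 were past that threshold in either direction in limma. Adpgk had the smallest p of them and a log2 difference of 0.08 (limma BH-adjusted p = 0.650). Pgam2 averaged 3.03 ± 0.496 FPKM in si_CDCP1 and 2.70 ± 0.706 FPKM in si_NC, and Pfkfb2 1.38 ± 0.207 FPKM in si_CDCP1 and 1.51 ± 0.0858 FPKM in si_NC.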

How the data were processed

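RNA sequencing was done on 6 libraries, 3 si_CDCP1 and 3 si_NC, prepared with a SMARTER mRNA-Seq kit according to the labels' protocols. Values came as FPKM in 1 table that the authors deposited, with mouse Ensembl identifiers, gene lengths and positions per the file headers. The build is mm10, per the submitters' processing notes; for the aligner, the counting tool and the strand the sources used here give nothing.

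FPKM times gene length was a whole multiple of 1 step in each library (100% of values above 0 within 0.01 of a whole read). This gave reads and an implied library total, the total to which FPKM was scaled. In si_CDCP1 replicate 3 the implied total, 1.56053e+07, was below its 16230958 reads in listed genes, unlike in each other library. It is thus a scaling value and not a count of all reads. The FPKM, RPM and voom values carry this scaling, and its part in the group differences was not tested. A floor of reads covers counting error alone, and 3 reads in a gene of 1 kb correspond to between 0.149 and 0.192 FPKM.

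Rows with a mean of at least 1 FPKM were tested with limma 3.58.1 (R 4.3.3) on log2(FPKM + 1), which understates the change of low genes, with an intensity trend, two-sided, BH-adjusted at 0.05. The procedure was tested on simulated data with changes larger than those of the members here and the same spread for all genes and both groups. That test does not bear on differences as small as those described, nor on the unequal spread of the groups. Isozyme shares were tested by exact permutation (scipy 1.17.1). Same-numbered libraries did not deviate together (correlations -0.0200, 0.0265 and 0.0223), and no replicate pair was a duplicate (chi-square per degree of freedom at least 2.98).

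The members, gene lists and tests were chosen with earlier results of these data known. Library values were given for members with an unadjusted p under 0.05 (the 10 smallest) and for 10 fixed members, 3 of which are also among those 10, and in each further list group values were given for the 3 smallest p-values, except for 1 gene that is not reported here. Library values of Vhl, Egln1, Egln2, Pfkl, Pfkfb3, Pfkfb4, P4ha1 and P4ha2 and other genes were added after their values were seen, including those of the Gapdh copies. Other rows of a member are those whose description carries the same UniProt entry name. Alternatives were other pseudocounts (0.1 and 0.01 FPKM), filters, scalings, no trend, library weights, the replicate block, protein-coding rows, limma voom on recovered reads (at least 10 reads in 3 libraries, implied totals as library sizes) and each library left out. Voom without si_CDCP1 replicate 3, removal of a gene length trend (lowess, span 0.3) and summed copies were chosen after seeing the data.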

Additional observations from a re-analysis of the deposited data

How the results depend on the processing

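Limma called 0 rows in the 6 libraries. It called 7 rows without a filter, 4 at a mean of at least 5 FPKM, 2 under quantile normalisation, 1 with equal FPKM sums, 2 among protein-coding rows, 3 with the length trend removed and 865 with library weights, where si_CDCP1 replicate 2 had a weight of 5.11 and si_CDCP1 replicate 3 one of 0.165. Voom called 5, and 491 without si_CDCP1 replicate 3. With single libraries left out limma called 0 or 1. With the replicate number as a block it called 1 row and 0 members, with 7 members at an unadjusted p under 0.05 against 10 without the block, and 21 against 23 genes of the further lists and 1558 against 1722 of all rows at that threshold. The block moved no other count of calls by over 1.5 times.

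Of the members, 0 were called in limma except with library weights (5: Hif1a, Tpi1, Pgk1, Ndrg1 and Vegfa, all higher in si_CDCP1), and voom without si_CDCP1 replicate 3 called 3. Members at an unadjusted p under 0.05 numbered 6 with equal FPKM sums (beside 15.2% of all rows), 14 with library weights (29.1%), 12 without si_CDCP1 replicate 3 (16.6%), 3 without si_NC replicate 1 (8.07%), 1 without si_NC replicate 2 (7.57%), 6 without si_NC replicate 3 (9.09%) and 13 of 38 in voom without si_CDCP1 replicate 3 (17.0%). For the further lists the count of 23 became 13 without si_NC replicate 1 and 11 without si_NC replicate 2, with at most 24 when 1 library was left out, and 32 with library weights. The cause was not tested.

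The median log2 difference of the enzymes ranged from -0.0476 to 0.0635 with libraries left out. That of the other targets was 0.0576, and 0.0196 without a filter, -0.00925 under quantile normalisation and 0.0057 with equal FPKM sums. Among the members with the 10 smallest p-values and the 10 fixed members, the sign changed for Vegfa (-0.01) and Ldha (-0.0573) under quantile normalisation. It also changed for Pkm (0.0259) and Pdk1 (0.0179) with library weights. With libraries left out it changed for Gapdh (from -1.26 to 0.16) and Pkm (from -0.11 to 0.0545, and 0.0552 in voom without si_CDCP1 replicate 3). Other members also changed sign under some alternatives, among them Pfkl (0.104), Egln1 (0.083) and Egln2 (0.066) with library weights. Isozyme share differences that changed sign with a library left out ranged, in percentage points, from -0.011 to 3.59 for Pfkl, -0.118 to 3.23 for Pfkp, -0.0403 to 0.0173 for Aldoc, -0.157 to 0.150 for Slc2a3, -0.120 to 0.170 for Slc16a3, -2.85 to 0.899 for Pdk2 and -0.497 to 0.0480 for P4ha2.

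Few reads limit what can be said of Slc16a3, Ankrd37, Aldoc and Egln3, of which Egln3 had the most reads in a group (111). Adm had 0. The cause of these low counts was not tested.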
